A study of Homo sapiens with 45 samples.

Results

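A375 melanoma cells in which AKT1 or its kinase chaperone CDC37 had been targeted with siRNA are described here, from 2 of the 45 Affymetrix U133 plus 2.0 arrays of the study. The 2 arrays were chosen by the target named in their labels, AKT1 siRNA and CDC37 siRNA, and each was read against the other arrays of the same experimental batch. A375 is an established human malignant melanoma line. All cells were harvested 48 h after transfection with Oligofectamine, and each siRNA was a pool against 1 mRNA, used in 1 culture and hybridised to 1 array. The reference is the 21 other targeting siRNA arrays of batch KD2, whose targets are ABL1, CCNA2, CCNB1, CCND3, CDC16, CDK4, CDKN2C, CEBPD, CEBPZ, CHEK1, FOXM1, GABARAP, HDAC2, HDAC3, MAP2K1, NMI, PIK3CB, RBL2, RELA, SP100 and STAT6. The reference is therefore a panel of other knockdowns, many of them of cell cycle regulators, and not of unperturbed cells. A further 16 targeting arrays belong to batches KD1 (9 arrays) and KD3 (7 arrays), and 3 control siRNA and 3 untreated arrays complete the series. The batch of those last 6 arrays is not given in the sources used here, so their values are shown beside the main genes and not used as the reference.

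AKT1 encodes a serine-threonine kinase that is recruited to the membrane by the lipid product of phosphoinositide 3-kinase. Active AKT phosphorylates FOXO transcription factors, which leave the nucleus, and signals through mTOR to protein, lipid and glucose metabolism. CDC37 is a co-chaperone that delivers kinases, AKT and RAF kinases among them, to HSP90 for folding. Both proteins therefore sit upstream of the same survival and growth signals in melanoma cells. Each acts mainly on other proteins, so that messages can report on it only at a distance.

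Levels are given as the log2 of the deposited intensity. A difference is the level in the array of AKT1 or CDC37 siRNA minus the median of the 21 reference arrays, so that a difference of 1 is a doubling in intensity. A gene was represented by its brightest probe set and was read if its median level reached 8.59, which is 1.5 times the median intensity of the BioB hybridisation control. Of 19775 genes, 4800 passed. A gene was called when its difference was at least 0.5 in size and its level lay outside the whole range of the 21 reference arrays. Where a gene is said to lie above or below all reference arrays by some amount, that amount is its difference from their median. There is 1 array per siRNA, so no p-value across genes can be given and no difference has a replicate check. Median levels over all probe sets ran between 5.06 and 5.15 in the 45 arrays. Control siRNA array 3 and untreated array 3 agreed within 10% at 100% of probe sets, so they may not be separate samples, while the arrays of AKT1 and CDC37 siRNA did so at 51.2%. The 2 arrays of interest were closest to batch KD2, at a median absolute difference from its medians of 0.09 (AKT1 siRNA) and 0.08 (CDC37 siRNA), against 0.21 for KD1 in both and 0.28 for KD3 in both. By the same measure control siRNA arrays 1, 2 and 3 were closest to KD1 (0.080), KD2 (0.068) and KD3 (0.075), and untreated arrays 1, 2 and 3 to KD1 (0.18), KD2 (0.074) and KD3 (0.10), although no source used here assigns them. Of the markers of the melanocyte lineage, 5 of 15 measured genes passed the noise limit (SOX10, S100B, MITF, EDNRB and ERBB3), while the pigment genes PMEL, MLANA, TYR and TYRP1 lay between 3.01 and 5.60 in the 2 arrays. None of 4 endothelial markers passed, while 1 of 7 keratinocyte and epithelial markers did, at a median level of 11.2. This marker differed by -0.20 after AKT1 siRNA, below all reference arrays, and by -0.04 after CDC37 siRNA. Of 7 measured leukocyte markers 2 passed, CD74 and HLA-DRA, while PTPRC, CD3D, CD3E and CD14 lay between 3.71 and 5.01.

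Both siRNAs lowered their own target. AKT1 mRNA stood at 6.45 after AKT1 siRNA and at 7.78 after CDC37 siRNA, against 7.64, 7.86 and 8.12 as the lowest, median and highest of the reference arrays. This was a fall of 1.41, or 62.3% of the intensity, and the lowest value of all 45 arrays. CDC37 mRNA stood at 9.63 after CDC37 siRNA and at 10.84 after AKT1 siRNA, against a reference of 10.62, 10.74 and 10.94. It fell by 1.11, or 53.7%, and was likewise the lowest of the 45. The study chose its siRNAs for their ability to lower the target mRNA, so these falls are a check of the labels and are given with no test. The AKT1 probe set lay under the noise limit in all 21 reference arrays and is not among the 4800 genes. AKT1 after CDC37 siRNA differed by -0.08 and CDC37 after AKT1 siRNA by 0.10, both inside the reference range.

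Close relatives of the targets did not pass the limit. AKT2, the second AKT gene, was under the noise limit, with a level of 8.36 after AKT1 siRNA and 8.08 after CDC37 siRNA, against 8.13, 8.40 and 8.66 in the reference. It was below all reference arrays after CDC37 siRNA, 0.32 under their median, and in the middle of them after AKT1 siRNA. CDC37L1, a CDC37-like co-chaperone, differed by 0.02 after AKT1 siRNA and by -0.18 after CDC37 siRNA, inside the reference range in both.

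**Figure D1:**
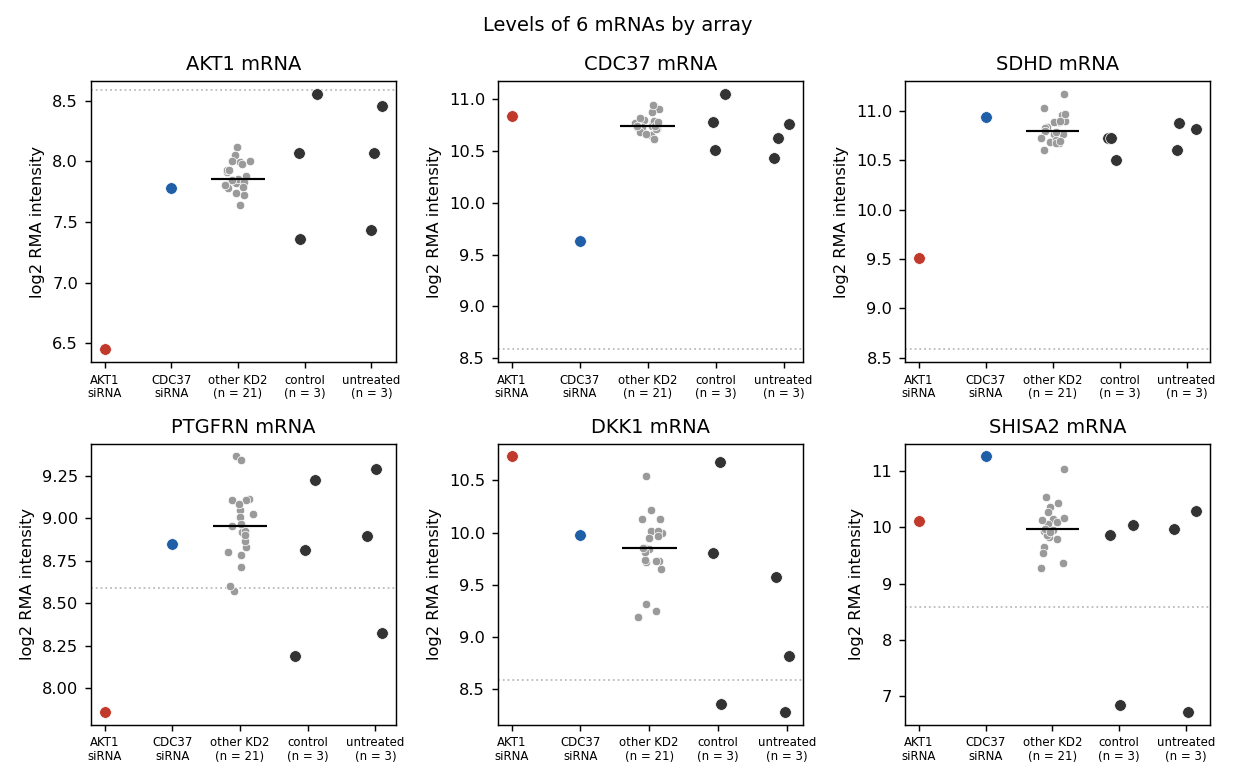
Log2 RMA intensity of AKT1, CDC37, SDHD, PTGFRN, DKK1 and SHISA2 in the array of AKT1 siRNA, the array of CDC37 siRNA, the 21 other KD2 arrays, 3 control siRNA arrays and 3 untreated arrays. Points are single arrays, the black line is the median of the 21 arrays, and the dotted line is the noise limit of 8.59. AKT1 (6.45), SDHD (9.51) and PTGFRN (7.86) are lowest in the array of AKT1 siRNA, and CDC37 (9.63) is lowest in the array of CDC37 siRNA.

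Few other messages moved far. After AKT1 siRNA 8 genes were called higher (0.167% of the 4800) and 25 lower (0.521%), and after CDC37 siRNA 6 were called higher (0.125%) and 15 lower (0.312%). When each KD2 array was set against its 22 fellows in the same way, the number of called genes ran between 1 (ABL1 siRNA) and 144 (MAP2K1 siRNA), with a median of 18 over the 23 arrays. AKT1 siRNA, with 32, came 7th from the top and CDC37 siRNA, with 21, came 11th. The spread of differences over all genes was 0.16 (SD) after AKT1 siRNA and 0.13 after CDC37 siRNA. No gene was called in both arrays, in the same or in opposite directions. The 2 sets of differences share their 21 reference arrays, so the values are set side by side below without a measure of likeness.

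**Figure D2:**
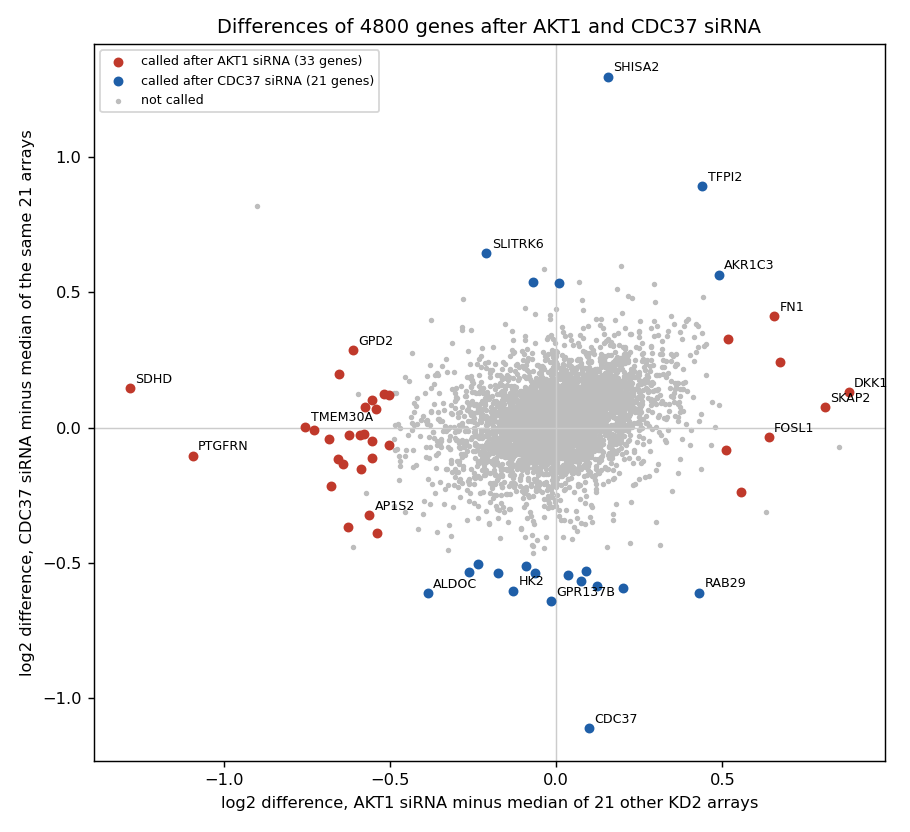
Each point is 1 of 4800 genes above the noise limit, with its log2 difference after AKT1 siRNA on the x axis and after CDC37 siRNA on the y axis, each against the median of the same 21 KD2 arrays. Red points are the 33 genes called after AKT1 siRNA and blue points the 21 called after CDC37 siRNA. The red points lie to the left and right of the cloud and the blue points above and below it, with no gene called in both.

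After AKT1 siRNA the message that fell most was that of SDHD, the small membrane anchor of succinate dehydrogenase, the enzyme that joins the citric acid cycle to the respiratory chain. Its level was 9.51 after AKT1 siRNA and 10.94 after CDC37 siRNA, against 10.60, 10.79 and 11.17 in the reference. Control siRNA arrays gave 10.50, 10.72 and 10.72 and untreated arrays 10.88, 10.81 and 10.60, so the array of AKT1 siRNA was far under each of them and was the lowest of the 45. The fall of 1.28 was 2.43-fold and came close to that of AKT1 itself. The other SDHD probe set had no usable signal, at 3.09 after AKT1 siRNA and a reference median of 3.35. No partner of SDHD was called: SDHA, the catalytic subunit, differed by -0.11, SDHC, the other membrane anchor, by -0.09 and the assembly factor SDHAF2 by -0.17, each inside the reference range. After CDC37 siRNA the same 3 genes differed by -0.13, -0.11 and -0.14. The list of 4 succinate dehydrogenase genes includes SDHD itself, so its median after AKT1 siRNA in part restates the call of SDHD. The list medians were -0.14 after AKT1 siRNA and -0.12 after CDC37 siRNA, under those of all 21 reference arrays (-0.08 to 0.08). With the 3 control siRNA arrays as the reference they were 0.0062 and 0.053, and with control siRNA arrays 1 and 2 they were -0.069 and -0.050.

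PTGFRN, an immunoglobulin-like membrane protein and partner of tetraspanins, had a level of 7.86 after AKT1 siRNA and 8.85 after CDC37 siRNA, against 8.57, 8.96 and 9.36 in the reference. The fall was 1.09, but its other probe set above the noise limit gave a difference of only -0.27. SDHD and PTGFRN were the only called genes to fall by more than 1. TMEM30A, the partner subunit of phospholipid flippases, was at 8.95 after AKT1 siRNA and 9.71 after CDC37 siRNA, against 9.31, 9.70 and 9.93. All 3 of its probe sets gave similar values (-0.76, -0.79 and -0.72), but control siRNA array 1 was lower still, at 8.86.

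Among the other messages that fell, UHMK1, a kinase that phosphorylates the CDK inhibitor p27, was at 10.72 after AKT1 siRNA and 11.44 after CDC37 siRNA, against 11.05, 11.45 and 11.80, and was the lowest of all 45 arrays. TBC1D5, a GTPase-activating protein of endosomal Rab7, fell by 0.68, the lipid transfer protein VPS13C by 0.68, and ERLEC1, a lectin of endoplasmic reticulum quality control, by 0.66. DYNC1LI2, a dynein chain, fell by 0.62, AP1S2, the small subunit of the AP-1 clathrin adaptor, by 0.56 and the p24 family member TMED8 by 0.54. One of 3 other AP1S2 probe sets above the noise limit went the other way, at 0.44.

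GPD2, the mitochondrial glycerol-3-phosphate dehydrogenase, was at 8.57 after AKT1 siRNA and 9.46 after CDC37 siRNA, against 8.77, 9.18 and 9.39 in the reference. It was thus below all reference arrays in the first and above all of them in the second, although its difference of 0.29 after CDC37 siRNA did not reach the limit. GPD1L, a cytosolic relative, fell by 0.64, BNIP3L, a receptor for the removal of mitochondria, by 0.63 and RMDN3, a tether of mitochondria to the endoplasmic reticulum, by 0.58. BNIP3L was at 8.89, while control siRNA arrays 1 and 3 were at 8.66 and 8.21, so this level is not low for the series as a whole.

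The remaining falls included CHD1L, a chromatin remodeller (0.59), TBL1XR1, a subunit of nuclear corepressor complexes (0.59), the ubiquitin ligases PJA2 (0.58) and DTX3L (0.50), the metalloproteinase MMP16 (0.65), the protease inhibitor SERPINA3 (0.56), EPDR1 (0.56) and the matrix protein HMCN1 (0.54). TRIB2, a pseudokinase known to restrain FOXO factors in melanoma cells, fell by 0.52 to 9.69 after AKT1 siRNA, against a lowest reference value of 9.71. TPX2, a spindle protein that activates Aurora A, fell by 0.50. Another CHD1L probe set, under the noise limit, differed by 0.60, and DTX3L differed by 0.0012 with control siRNA arrays 1 and 2 as the reference. The calls of TPX2 and DTX3L were lost (-0.48 and -0.496) when any 1 of the 10 reference arrays above their median was left out. HMCN1 ranged widely in the series, with 9.12 after AKT1 siRNA and 9.27 after CDC37 siRNA, against 7.70, 9.75 and 6.69 in control siRNA arrays.

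The 8 messages that rose after AKT1 siRNA were led by DKK1, a secreted antagonist of WNT signalling. DKK1 was at 10.73 after AKT1 siRNA and 9.98 after CDC37 siRNA, against 9.19, 9.85 and 10.54. It varied widely in the series, with 10.67, 9.81 and 8.36 in control siRNA arrays and 8.82, 9.57 and 8.28 in untreated arrays, and the rise of 0.88 was 2.74 SD of the reference. SKAP2, an adaptor of Src family kinases, was at 10.16 after AKT1 siRNA and 9.43 after CDC37 siRNA, against 8.96, 9.35 and 9.57. It was the highest of the 45 arrays, and its rise of 0.81 was 5.49 SD of the reference, more than for any other message that rose in this array. Its other probe set above the noise limit gave 0.30.

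Fibronectin, FN1, was at 10.73 after AKT1 siRNA and 10.48 after CDC37 siRNA, against 9.65, 10.07 and 10.65. Its 3 other probe sets above the noise limit gave differences of 0.67, 0.69 and 0.74, and those under it 0.02, 0.46 and 0.08. TIMP3, a matrix-bound inhibitor of metalloproteinases, rose by 0.56, and its 3 other probe sets gave 0.30, 0.27 and 0.33. RMI2, part of the complex that resolves recombination intermediates with the BLM helicase, rose by 0.67 and was the highest of the 45 arrays. The transcription factors FOSL1, an AP-1 subunit, and KLF4 rose by 0.64 and 0.52, and the histone chaperone NPM3 by 0.51. The call of NPM3 was lost (0.48) when any 1 of the 10 reference arrays below its median was left out. FOSL1 stood at 10.15, against 11.25, 9.38 and 10.33 in control siRNA arrays, and KLF4 at 9.06, against 8.89, 8.21 and 10.60, so that neither was extreme in the series.

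**Figure D3:**
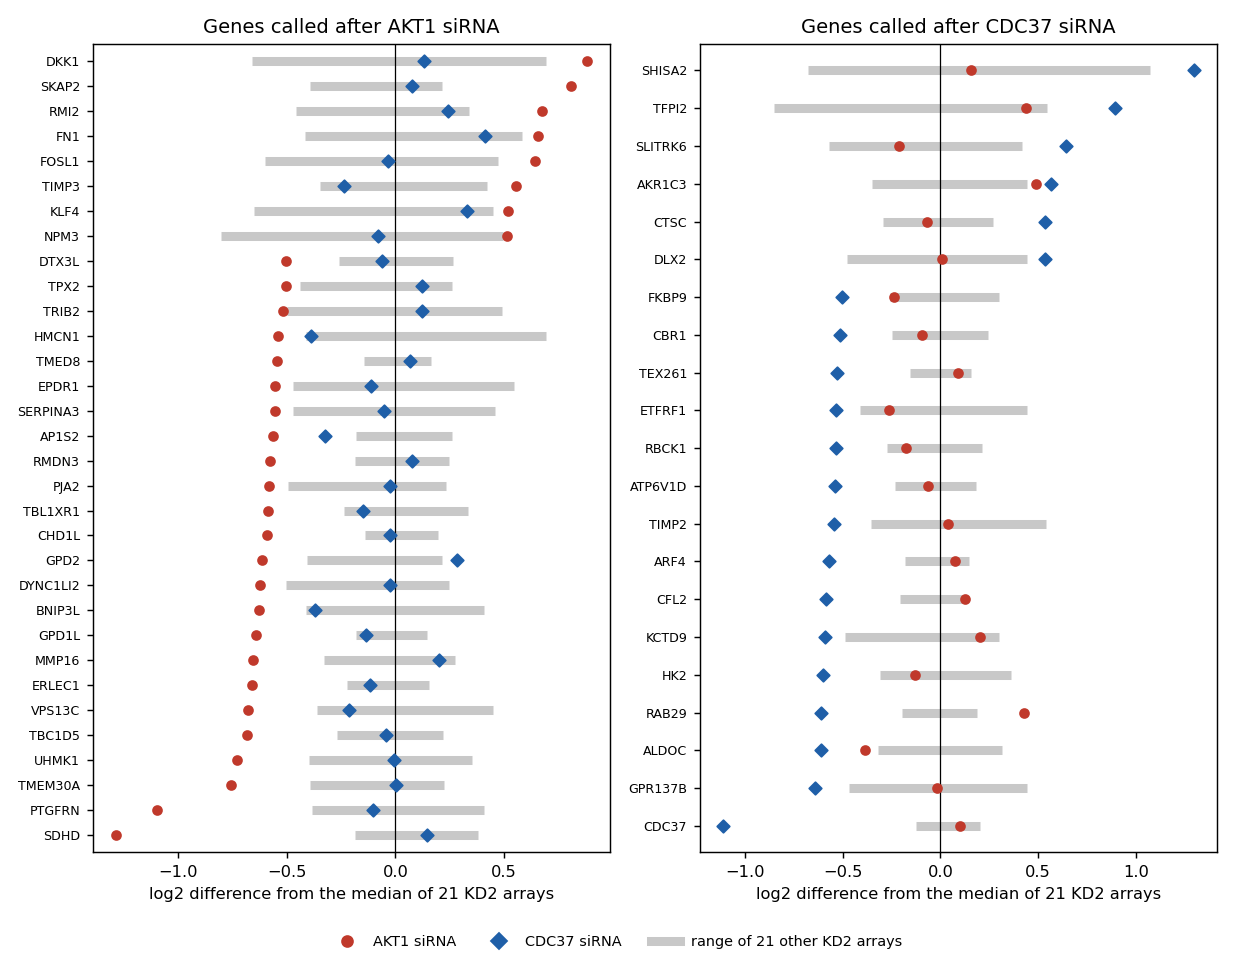
Genes called after AKT1 siRNA (left, 1 gene not drawn) and after CDC37 siRNA (right), ordered by their log2 difference from the median of the 21 other KD2 arrays (x axis). Red circles are AKT1 siRNA, blue diamonds CDC37 siRNA, and grey bars the range of the 21 arrays. Most genes called in 1 array lie inside the grey range in the other, with AP1S2 and GPD2 (left) and RAB29, ALDOC and AKR1C3 (right) outside it in both.

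After CDC37 siRNA the largest change among the 4800 genes was a rise of SHISA2, a protein that holds back FGF and WNT receptors in the endoplasmic reticulum. SHISA2 was at 11.26 after CDC37 siRNA and 10.12 after AKT1 siRNA, against 9.29, 9.96 and 11.04 in the reference, where PIK3CB siRNA gave the highest value. The rise of 1.30 was 2.46-fold and made it the highest of the 45 arrays. TFPI2, a secreted inhibitor of serine proteases, was at 10.04 after CDC37 siRNA and 9.59 after AKT1 siRNA, against 8.30, 9.15 and 9.69. TFPI2 was higher still in control siRNA array 3 (10.51) and untreated array 3 (10.59). SLITRK6, a neuronal-type membrane protein, was at 10.70 after CDC37 siRNA and 9.85 after AKT1 siRNA, against 9.49, 10.06 and 10.47. All 3 SLITRK6 probe sets rose, by 0.64, 0.65 and 0.83.

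AKR1C3, a reductase of steroids and prostaglandins, rose by 0.57 after CDC37 siRNA. It was at 9.49 after CDC37 siRNA and 9.41 after AKT1 siRNA, against 8.57, 8.92 and 9.37, so that it was the highest and second highest of all 45 arrays in these 2. The lysosomal protease CTSC rose by 0.54, with 0.16 and 0.34 at its other probe sets above the noise limit and 0.19 under it. The homeobox gene DLX2 rose by 0.53, with -0.09 at its other probe set, under the noise limit. DLX2 was at 9.58, below control siRNA array 3 (10.61).

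Of the 14 messages that fell besides CDC37, 2 encode enzymes of glycolysis. HK2, the hexokinase that traps glucose in many tumour cells, was at 8.46 after CDC37 siRNA and 8.93 after AKT1 siRNA, against 8.75, 9.06 and 9.42. It was the lowest of the 45 arrays, with control siRNA arrays at 8.98, 9.08 and 8.83. The 2 other HK2 probe sets were under the noise limit and gave 0.03 and 0.16. ALDOC, aldolase C, was at 8.38 after CDC37 siRNA and 8.61 after AKT1 siRNA, against 8.67, 8.99 and 9.31, the lowest and second lowest values of the series. Both genes are classical targets of hypoxia-inducible factor, whose sites often hold the word ACGTG. Their promoters are shown because they fell together, as RefSeq sequence of build GRCh38.p14 covering 250 bases before and 50 after the start site, with ACGTG on either strand in capitals (it reads CACGT on the opposite strand).
HK2, chr2:74833877-74834176, plus strand: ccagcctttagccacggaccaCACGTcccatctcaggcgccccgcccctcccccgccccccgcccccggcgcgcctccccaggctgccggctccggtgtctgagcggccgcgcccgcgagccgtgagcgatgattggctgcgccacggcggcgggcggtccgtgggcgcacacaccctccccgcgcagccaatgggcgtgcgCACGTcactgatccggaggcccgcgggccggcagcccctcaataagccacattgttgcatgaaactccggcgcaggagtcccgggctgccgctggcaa
ALDOC, chr17:28576846-28577145, minus strand: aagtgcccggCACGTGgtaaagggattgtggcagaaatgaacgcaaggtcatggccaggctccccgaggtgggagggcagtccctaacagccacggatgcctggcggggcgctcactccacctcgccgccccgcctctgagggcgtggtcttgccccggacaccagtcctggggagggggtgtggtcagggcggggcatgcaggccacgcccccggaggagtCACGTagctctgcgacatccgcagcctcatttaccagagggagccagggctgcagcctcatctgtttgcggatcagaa

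The word occurred at 2 places in HK2, at 229 and 48 bases before the start, and at 3 in ALDOC, at 240, 239 and 28 bases before it, of which the first 2 overlap as CACGTG. It occurred in 21.6% of 27305 RefSeq promoters of this length and in 11 of the 20 promoters of the hypoxia and glycolysis genes that could be matched. A match is a description of the letters and not a bound site. Only this word was searched for, and other forms of the site are neither marked nor counted. The rest of that list was not called. Its 22 members had a median difference of -0.05 after CDC37 siRNA, where 0 were called higher and 2 lower, and of -0.04 after AKT1 siRNA, where none was called. Over all 4800 genes the median was 0.03 after CDC37 siRNA and 0.0045 after AKT1 siRNA. GAPDH and PGK1 were below all reference arrays after CDC37 siRNA, at differences of -0.05 each, and PGK1 also after AKT1 siRNA, at -0.17. SLC2A1, VEGFA, NDRG1 and LDHA were inside the range in both arrays.

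RAB29, a Rab GTPase of the Golgi and lysosome, went opposite ways in the 2 arrays. It was at 8.75 after CDC37 siRNA, the lowest of the 45, and at 9.79 after AKT1 siRNA, the highest of the 45, against 9.16, 9.36 and 9.55. Only the first passed the limit, with a fall of 0.61. The 2 other RAB29 probe sets, both under the noise limit, gave -0.62 and -0.14 after CDC37 siRNA.

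The other messages that fell after CDC37 siRNA were spread over several functions. GPR137B, a lysosomal membrane protein, was at 8.27 after CDC37 siRNA and 8.89 after AKT1 siRNA, against 8.44, 8.91 and 9.35. ATP6V1D, a subunit of the proton pump of lysosomes, fell by 0.54. Its other probe sets gave -0.65 and, under the noise limit, -0.12 and -0.20. Traffic and cytoskeleton were represented by ARF4, a Golgi GTPase (0.57, with -0.32 at its other probe set), TEX261 (0.53) and the actin-severing CFL2 (0.59). The other CFL2 probe sets gave -0.50 and, under the noise limit, -0.37. TIMP2, an inhibitor of metalloproteinases, fell by 0.54. Its other probe sets gave -0.59 and, under the noise limit, -0.08. RBCK1, a subunit of the linear ubiquitin ligase, fell by 0.54, the ubiquitin ligase adaptor KCTD9 by 0.59, ETFRF1, a regulator of electron transfer flavoprotein, by 0.53, the reductase CBR1 by 0.51 and FKBP9, a prolyl isomerase of the endoplasmic reticulum, by 0.50.

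Over all called genes, 13 of those called after AKT1 siRNA had 20 further probe sets above the noise limit, of which 18 went the same way and 8 passed 0.5. After CDC37 siRNA 6 genes had 8 such probe sets, of which 8 went the same way and 5 passed 0.5. The 25 genes that fell after AKT1 siRNA had a median difference of -0.03 after CDC37 siRNA, and 20 of them lay within 0.2 of the reference median there. The 14 that fell after CDC37 siRNA besides the target had a median of -0.04 after AKT1 siRNA, and 9 lay within 0.2.

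None of the genes of the AKT pathway itself was called. Of 12 members above the noise limit, 5 were above the reference median after AKT1 siRNA, where 51.6% of all genes were, and 8 after CDC37 siRNA, where 61.5% of all genes were. The median was -0.03 after AKT1 siRNA and 0.02 after CDC37 siRNA, and the medians of the 21 reference arrays ran between -0.08 and 0.09. Among the members, GSK3B, a kinase that AKT inhibits, differed by -0.26 after AKT1 siRNA and 0.15 after CDC37 siRNA. EIF4EBP1, the translation repressor that mTOR inactivates, differed by -0.04 and lay above all reference arrays after CDC37 siRNA, by 0.25. RHEB, the GTPase that activates mTOR, was above all reference arrays after AKT1 siRNA, by 0.12, and MAPKAP1, a subunit of mTOR complex 2, below all of them, by 0.14. The FOXO factors and their targets had medians of -0.09 after AKT1 siRNA and -0.02 after CDC37 siRNA over 10 genes, inside a reference range of -0.20 to 0.13, and none was called. CDKN1B, which encodes p27, differed by -0.19 and -0.22 and IRS2 by -0.08 and -0.22. The SREBP targets of lipid synthesis had a median of 0.02 in both arrays over 12 genes, again with none called. ACLY, the enzyme that makes cytosolic acetyl-CoA, was below all reference arrays after AKT1 siRNA, by 0.19, and ACACA, the carboxylase that follows it, was below all of them after CDC37 siRNA, by 0.30.

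No chaperone gene other than CDC37 itself was called after CDC37 siRNA. The 15 genes of the HSP90 and CDC37 system had a median of 0.00 after CDC37 siRNA and of 0.07 after AKT1 siRNA. HSP90AB1, the constitutive HSP90, differed by 0.06 after CDC37 siRNA and 0.02 after AKT1 siRNA. HSP90AA1, the inducible form, was at 13.78 after AKT1 siRNA and 13.64 after CDC37 siRNA, against 13.36, 13.58 and 13.71. The targets of the heat shock factor HSF1 had a median of 0.10 after AKT1 siRNA, above the medians of all 21 reference arrays (-0.10 to 0.09), and of 0.03 after CDC37 siRNA. In the array of AKT1 siRNA 13 of these 15 genes were above the reference median, and 3 were above all reference arrays (HSP90AA1, DNAJA1 and HSPD1), while the collagen chaperone SERPINH1 was below all of them. For comparison, after AKT1 siRNA 51.6% of all genes lay above the reference median, 6.15% above all reference arrays and 5.46% below them. After CDC37 siRNA these shares were 61.5%, 5.15% and 3.06%.

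Kinases known to fold with CDC37 were, as messages, slightly higher after CDC37 siRNA. The 17 above the noise limit had a median of 0.10 there, above all 21 reference medians (-0.17 to 0.08), and 14 of the 17 were above the reference median. Of all 4800 genes, 61.5% were above the reference median in that array, with a median difference of 0.03. The median of the 17 after AKT1 siRNA was 0.00, with 8 of them above, against 51.6% of all genes. None was called in either array. CHEK1, the checkpoint kinase, was above all reference arrays after CDC37 siRNA, by 0.30, and EIF2AK1, the haem-regulated kinase of translation, was below all of them, by 0.30. WEE1 differed by 0.24 and CDK6 by 0.12 after CDC37 siRNA, and CDK4 by 0.01. These are messages, and kinase protein was not measured.

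Outputs of ERK signalling, which RAF kinases feed, lay mostly above the reference after CDC37 siRNA. Of 18 such genes 17 were above the reference median, with a median of 0.11, inside the reference range of -0.22 (MAP2K1 siRNA) to 0.12. In that array 61.5% of all genes were above the reference median. The feedback regulators DUSP6, SPRY2 and DUSP4 differed by 0.17, 0.22 and 0.11. After AKT1 siRNA the median was 0.06. FOSL1 was the only member called, while PHLDA1 was below all reference arrays at 11.50, against 11.69, 11.99 and 12.21.

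The messages of cell division were higher in both arrays than in most of the batch. Of all genes, 51.6% were above the reference median after AKT1 siRNA and 61.5% after CDC37 siRNA. Of the 29 DNA replication and G1/S genes above the noise limit, 29 were above the reference median after AKT1 siRNA and 29 after CDC37 siRNA. Their medians were 0.23 and 0.25, and both arrays stood 3rd from the top when each was placed among the 21 reference medians, which ran between -0.46 (MAP2K1 siRNA) and 0.28 (CCNA2 siRNA). No single gene reached the limit of 0.5. PRIM1, the catalytic subunit of primase, was at 10.02 after AKT1 siRNA and 9.88 after CDC37 siRNA, against 8.89, 9.57 and 9.94. MCM4, a subunit of the replicative helicase, differed by 0.45 and 0.19, TK1, a thymidine salvage kinase, by 0.44 and 0.30, and CDC25A, the phosphatase that opens S phase, by 0.36 and 0.38. SLBP, which binds histone messages, was above all reference arrays in both, by 0.24 and 0.25. In all, 8 of the 29 were above all reference arrays after AKT1 siRNA and 2 after CDC37 siRNA. Of all genes, 6.15% and 5.15% were, so the count after CDC37 siRNA is near the share of all genes. The control siRNA arrays had list medians of 0.09, -0.05 and -0.63, and the untreated arrays -0.02, 0.16 and -0.51.

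The G2/M and mitosis genes had medians of 0.21 after AKT1 siRNA and 0.19 after CDC37 siRNA over 40 genes. Above the reference median were 37 and 38 of them, against 51.6% and 61.5% of all genes. Both arrays were 5th from the top among the reference medians, which ran between -0.43 and 0.30, so other knockdowns gave as much. The securin PTTG1 and the centromere protein CENPN were above all reference arrays in both, by 0.27 and 0.18 and by 0.21 and 0.29. Only 3 of the 40 were above all reference arrays after each siRNA. These counts are near the shares of all genes, 6.15% after AKT1 siRNA and 5.15% after CDC37 siRNA. TPX2 was the only member called, lower after AKT1 siRNA at 10.14, against 10.21, 10.65 and 10.90, with a level of 10.77 after CDC37 siRNA. The control siRNA arrays had list medians of 0.23, -0.02 and 0.14 and the untreated arrays 0.42, 0.28 and 0.20. The reference panel includes knockdowns of CCNA2, CCNB1, CDK4, CHEK1, FOXM1 and MAP2K1. An alternative chosen after seeing the data left FOXM1 and MAP2K1 siRNA out of the reference. The replication medians were then 0.22 in both arrays, and the G2/M medians 0.18 after AKT1 siRNA and 0.16 after CDC37 siRNA. The part of the other knockdowns together in both list results was not tested.

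**Figure D4:**
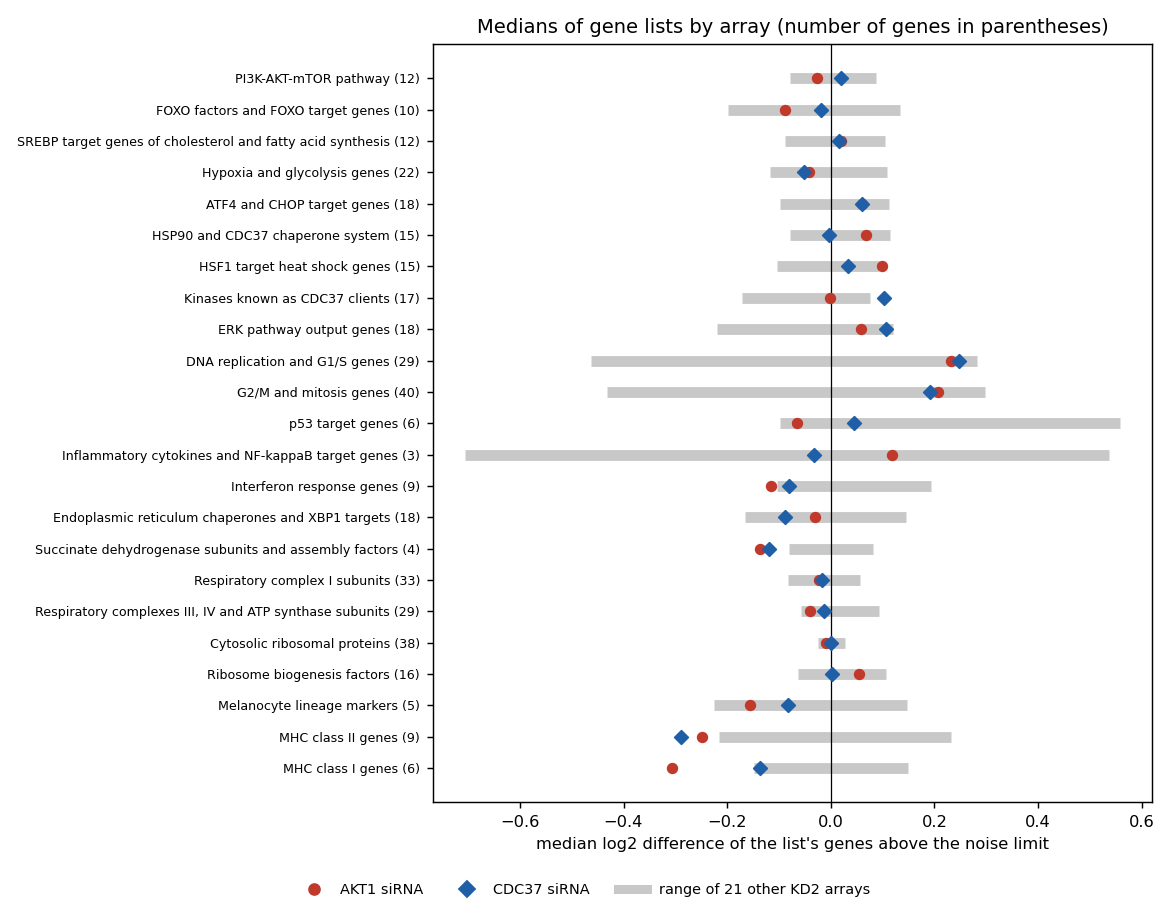
Median log2 difference of each gene list (x axis) after AKT1 siRNA (red circles) and CDC37 siRNA (blue diamonds), with grey bars for the range of the same median in the 21 other KD2 arrays and the number of genes above the noise limit in parentheses. Replication and mitosis lists lie high but inside the grey range. The MHC class II list lies below it in both arrays, at -0.25 and -0.29.

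The housekeeping lists had medians near 0. Ribosomal proteins had medians of -0.01 and 0.00 over 38 genes and complex I subunits -0.02 in both arrays over 33, with none called. Subunits of complexes III, IV and ATP synthase had medians of -0.04 and -0.01 over 29, again with none called. Below all reference arrays were 6 of these 29 after AKT1 siRNA and 1 after CDC37 siRNA, against 5.46% and 3.06% of all genes. Of the 33 complex I subunits, 4 were below and 3 above all reference arrays after AKT1 siRNA, against 5.46% and 6.15% of all genes. NDUFB2, a subunit of complex I, was among those below, at 11.56, against 11.92, 12.02 and 12.18. EDEM1, a mannosidase-like protein of endoplasmic reticulum quality control, was above all reference arrays after AKT1 siRNA, by 0.22, and below all of them after CDC37 siRNA, by 0.43. TNFRSF10B, a death receptor and p53 target, was below all reference arrays after AKT1 siRNA, by 0.48. The endoplasmic reticulum list had medians of -0.03 and -0.09 over 18 genes and the p53 list -0.07 and 0.05 over 6, inside the reference ranges. The interferon response genes had a median of -0.12 after AKT1 siRNA, below all 21 reference medians (-0.10 to 0.19), and of -0.08 after CDC37 siRNA. In the array of AKT1 siRNA 0 of these 9 genes were above the reference median, against 51.6% of all genes.

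Shared genes were sought next. With the limit of 0.5 there were 0. With the 3 control siRNA arrays averaged as the reference there were 81, with 181 genes called after AKT1 siRNA and 225 after CDC37 siRNA, but those arrays have no given batch and were each closest to a different one, so batch and siRNA cannot be told apart there. With a limit of 0.3, still outside the reference range, 180 genes were called after AKT1 siRNA and 98 after CDC37 siRNA. The 2 sets had 14 genes in common that went the same way (0.292% of the 4800), which is 7.78% of the first set and 14.3% of the second, and 2 that went opposite ways. The 7 that were higher in both were AKR1C3 (0.49 after AKT1 siRNA and 0.57 after CDC37 siRNA), EMP1, an epithelial membrane protein (0.44 and 0.48), GNG11, a G protein gamma subunit (0.43 and 0.37), CHAF1A, a subunit of the replication-coupled histone chaperone (0.42 and 0.38), ZFP36L2, a protein that destabilises messages (0.40 and 0.40), the splicing factor MBNL2 (0.39 and 0.39) and TFB1M, a mitochondrial rRNA methyltransferase (0.38 and 0.33). EMP1 was at 11.16 after AKT1 siRNA and 11.20 after CDC37 siRNA, against 10.40, 10.72 and 11.11, and at 10.78, 10.75 and 10.81 in control siRNA arrays.

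The 7 that were lower in both were AP1S2 (-0.56 and -0.32), TENT5A, a poly(A) polymerase (-0.46 and -0.31), RPRD1A, which binds the tail of RNA polymerase II (-0.40 and -0.32), ALDOC (-0.39 and -0.61), HLA-DRB6 (-0.36 and -0.39), HLA-DMA (-0.32 and -0.40) and COX7B2, a subunit isoform of cytochrome c oxidase (-0.32 and -0.36). The excess over the reference range was often small. ZFP36L2 was at 10.83 in both arrays, against a highest reference value of 10.71, and TENT5A at 9.86 and 10.00, against a lowest of 10.04.

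Of these 14 genes, HLA-DMA and the pseudogene HLA-DRB6 belong to MHC class II, so the whole family was examined, a choice made after its values were seen. Class II molecules present peptides to helper T cells, and a subset of melanomas express them constitutively. HLA-DMA and HLA-DMB load the peptide and CD74, the invariant chain, guards the groove until then. All 9 class II genes above the noise limit were below the reference median in both arrays. Of all genes, 51.6% were above it after AKT1 siRNA and 61.5% after CDC37 siRNA. CD74 was at 12.01 after AKT1 siRNA and 11.89 after CDC37 siRNA, against 11.98, 12.34 and 12.67. HLA-DMA was at 9.82 after AKT1 siRNA and 9.74 after CDC37 siRNA, against 9.93, 10.14 and 10.54. HLA-DRA, the constant chain of HLA-DR, differed by -0.08 and -0.31, HLA-DPB1 by -0.29 and -0.25 and HLA-DQB1 by -0.26 and -0.27. Below all 21 reference arrays were 4 of the 9 after AKT1 siRNA and 8 after CDC37 siRNA, against 5.46% and 3.06% of all genes. HLA-DMA, whose values led to this choice of family, is in both counts, which therefore in part restate that choice. The list medians were -0.25 and -0.29, below those of every reference array (-0.22 to 0.23), but no gene reached 0.5. HLA-DRB1, HLA-DRB4 and HLA-DRB6 are near-identical copies whose probe sets may share signal. CIITA, the master activator of the class, was under the noise limit, with 7.31 after AKT1 siRNA and 6.84 after CDC37 siRNA, against 6.76, 7.24 and 7.51.

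The promoters of CD74 and HLA-DMA are shown because class II promoters share an upstream module that includes a CCAAT box. The capitals mark CCAAT on either strand (ATTGG on the opposite one), in RefSeq sequence of build GRCh38.p14.
CD74, chr5:150412861-150413160, minus strand: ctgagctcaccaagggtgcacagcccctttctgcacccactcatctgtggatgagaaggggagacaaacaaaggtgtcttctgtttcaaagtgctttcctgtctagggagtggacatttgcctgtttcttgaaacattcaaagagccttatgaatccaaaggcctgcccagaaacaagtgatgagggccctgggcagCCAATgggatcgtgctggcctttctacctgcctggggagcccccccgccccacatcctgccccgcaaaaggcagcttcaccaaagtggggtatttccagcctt
HLA-DMA, chr6:32953048-32953347, minus strand: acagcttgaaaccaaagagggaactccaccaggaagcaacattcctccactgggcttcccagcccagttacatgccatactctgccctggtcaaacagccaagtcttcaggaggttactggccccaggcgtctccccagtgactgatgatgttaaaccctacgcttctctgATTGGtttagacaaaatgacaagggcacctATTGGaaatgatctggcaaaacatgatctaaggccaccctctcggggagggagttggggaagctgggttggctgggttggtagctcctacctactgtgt

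CCAAT lay 53 bases before the start of CD74, and at 79 and 49 bases before that of HLA-DMA. It was found in 6 of the 7 class II promoters that could be matched and in 35.7% of all promoters of this length. All 6 class I genes, a list also chosen after its values were seen, were below the reference median in both arrays, further so after AKT1 siRNA. Of all genes, 51.6% were above it after AKT1 siRNA and 61.5% after CDC37 siRNA. After AKT1 siRNA 5 of 6 were below all reference arrays, as were 5.46% of all genes. The list median was -0.31 and HLA-B was at 10.80, against 11.02, 11.27 and 11.50. After CDC37 siRNA none of the 6 was outside the range, the list median was -0.14 and HLA-B was at 11.08. HLA-C differed by -0.43 after AKT1 siRNA and -0.15 after CDC37 siRNA. The difference between the 2 arrays could not be tested with 1 array each. The control siRNA arrays had class II medians of -0.03, 0.11 and -0.95, and the untreated arrays 0.05, 0.08 and -0.97. The third of each lay far below both knockdowns, and the others above them. The third arrays were also those closest to KD3, and only the second of each was closest to KD2, the batch of both knockdowns. Class I medians were 0.19, 0.01 and -0.17 in control siRNA arrays and 0.32, 0.07 and -0.17 in untreated arrays.

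**Figure D5:**
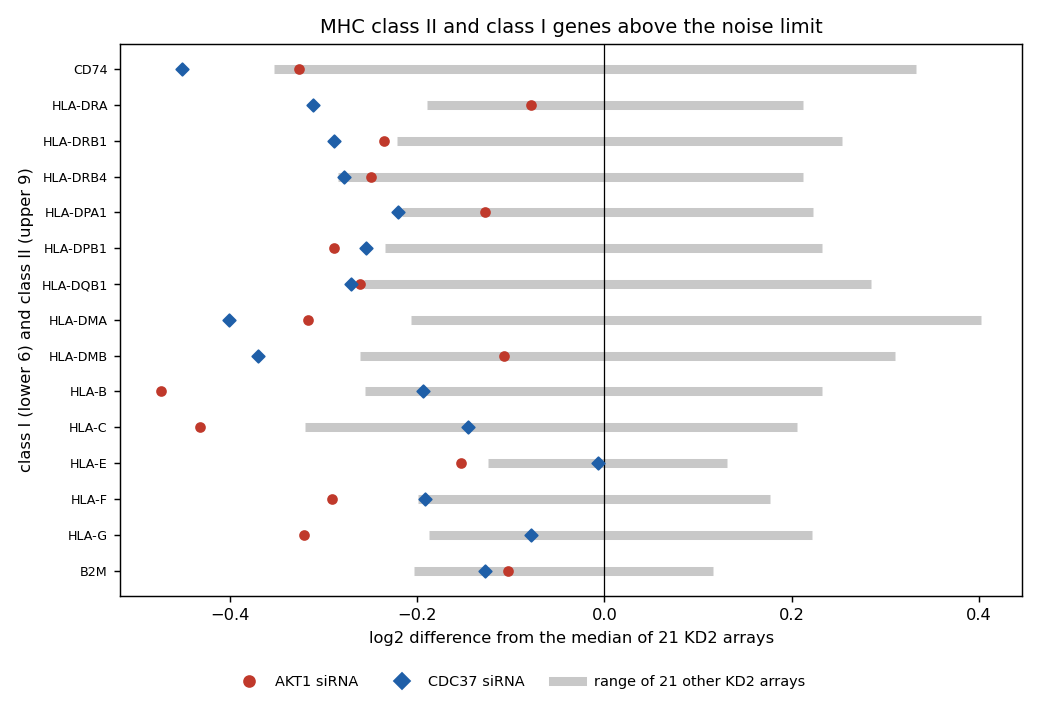
Log2 difference from the median of the 21 other KD2 arrays (x axis) of 9 MHC class II genes (upper rows) and 6 class I genes (lower rows). Red circles are AKT1 siRNA, blue diamonds CDC37 siRNA and grey bars the range of the 21 arrays. All points of both arrays lie left of 0. CDC37 siRNA lies below the grey range for 8 class II genes, and AKT1 siRNA for 4 class II and 5 class I genes.

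Of the lineage markers, none was called. S100B was below all reference arrays in both, at 9.67 after AKT1 siRNA and 9.68 after CDC37 siRNA, against 9.70, 9.98 and 10.21. MITF, the lineage factor of melanocytes, differed by -0.17 and -0.28 and SOX10 by 0.01 and -0.08, inside the range. EDNRB and ERBB3, also inside it, differed by -0.16 and 0.38 and by -0.01 and 0.05. The leukocyte list reads CD74 and HLA-DRA, which these cells express, and its summed level was 13.2 to 13.4 in the 2 arrays, against 13.4 to 13.8 in the reference.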

How the data were processed

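Total RNA of A375 cultures was hybridised to Affymetrix U133 plus 2.0 arrays by the authors, 1 array per siRNA. The deposited values are linear intensities that the authors made with RMA (background correction, quantile normalisation and summary of probes to probe sets), whose version is not given in the sources used here. Log2 was taken of each intensity here. Arrays have no sequencing depth, and their number limits the precision. Of 54675 probe sets, 41097 name 1 gene, 1801 several and 11777 none, and only the first were used, with symbols updated through Entrez identifiers. Batches were taken from the study's own target list and sample groups from the labels. The array of AKT1 siRNA or CDC37 siRNA was set against the median of 21 KD2 arrays. Genes were read above 1.5 times the median BioB intensity (256.5), a limit taken from the study's methods. Called genes passed a log2 difference of 0.5 and lay outside the reference range. Named genes were the targets, up to 12 called rises and 12 called falls per array by size, all shared genes, up to 4 members of each list with the largest difference, and the AKT, CDC37 and HSP90 genes. Others were named after their values were seen, among them the remaining called genes, the MHC genes and the list members inside or just outside the range. Of the genes called after AKT1 siRNA, 1 is counted but not reported here. The members and lists were chosen with earlier results of these data known. A planned exact rank test of the targets is not reported, since the study selected siRNAs by the fall of their target. Alternatives covered the reference arrays, the noise and fold limits, the range rule, the probe set of a gene and the scaling. Python 3.11.15, numpy 2.4.6, pandas 2.3.3 and matplotlib 3.10.9 were used.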

Additional observations from a re-analysis of the deposited data

Results flagged for a closer look

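RAB29 and GRK5 lay outside the reference range on opposite sides after the 2 siRNAs. RAB29, a Rab GTPase, differed by 0.43 after AKT1 siRNA and by -0.61 after CDC37 siRNA. GRK5, a kinase of G protein-coupled receptors, was at 8.42 after AKT1 siRNA and 9.19 after CDC37 siRNA, against 8.43, 8.79 and 9.03 as the lowest, median and highest of the 21 reference arrays, with differences of -0.38 and 0.40. The difference between the 2 arrays was not tested, since each siRNA has 1 array. UCA1, a long non-coding RNA, is under the noise limit by its median and so is in none of the comparisons, but it rose above the limit in both arrays. It was at 9.24 after AKT1 siRNA and 9.05 after CDC37 siRNA, against 7.33, 8.15 and 8.79 in the reference, 8.08, 7.59 and 8.64 in control siRNA arrays and 8.20, 8.05 and 8.67 in untreated arrays. The differences were 1.09 and 0.90.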

How the results depend on the processing

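Both targets, the counts of called genes and the absence of shared genes kept their values within 1.5 times when the partner array joined the reference, with the mean of the reference arrays, with batch-centred arrays and after a second quantile normalisation. The counts did so too at a noise limit of 2 times BioB, with the probe set of largest variance and with the fold limit alone. Leaving out each reference array in turn gave 30 to 34 genes after AKT1 siRNA, 21 to 22 after CDC37 siRNA, 0 shared genes, and target differences of -1.42 to -1.40 and -1.13 to -1.11. With the control siRNA arrays, 3 in number, averaged as the reference, 181 and 225 genes were called, with 81 shared, and against control siRNA arrays 1 and 2 the counts were 204, 226 and 86. The targets then differed by -1.55 (AKT1) and -1.15 (CDC37), and by -1.86 and -1.29. Without FOXM1 and MAP2K1 siRNA in the reference, an alternative chosen after seeing the data, the targets differed by -1.41 and -1.11. With no noise limit 250 and 79 genes were called, with 4 shared. A fold limit of 0.3 gave 180, 98 and 14, and a limit of 1 gave 2 and 2.

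Of 46 list medians, 8 lay outside the reference range, against 4 with batch-centred arrays, 14 with the 3 control siRNA arrays, 31 with control siRNA arrays 1 and 2, and 5 of 52 with no noise limit. Among the 8 were MHC class II in both arrays and class I after AKT1 siRNA, lists chosen after their values were seen. Succinate dehydrogenase was also among them in both arrays, and its list includes SDHD, which was called after AKT1 siRNA. Against the 3 control siRNA arrays the median after AKT1 siRNA was 0.10 for the AKT pathway, 0.22 for HSF1 targets, 0.086 for CDC37 clients (0.20 after CDC37 siRNA), 0.42 for replication genes and 0.068 for MHC class II (0.022 after CDC37 siRNA). Against control siRNA arrays 1 and 2 it was 0.080 for the AKT pathway (0.071 after CDC37 siRNA), 0.16 for CDC37 clients and -0.41 for MHC class I. With the probe set of largest variance MHC class II was at -0.11 and class I at -0.44 after AKT1 siRNA. The direction of single genes turned against the 3 control siRNA arrays for BNIP3L (0.13), DLX2 (-0.045), FOSL1 (-0.17), HMCN1 (1.07) and KLF4 (-0.17), against control siRNA arrays 1 and 2 for DTX3L (0.0012), FOSL1 (-0.17) and HMCN1 (0.40), and with the probe set of largest variance for AP1S2 (0.44), CHD1L (0.60), HK2 (0.16) and VPS13C (0.0055). The cause was not tested. Neither target has another probe set of 1 gene, so the choice of probe set cannot change them and no other probe set was run. The noise and fold limits do not apply to the differences of targets and named genes. No paired analysis was possible because the control siRNA and untreated arrays, which share replicate numbers, are not compared here and each siRNA has 1 array.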

Other observations

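Some genes passed the limit of 0.5 but stayed inside the reference range, and so were not called. After AKT1 siRNA these were FST, IGFBP5, ITGB8, MGP, S100A2 and TRIM2, and after CDC37 siRNA CD55, HMGA2, IGFBP5, NCOA7, SPP1 and USP53. IGFBP5, a secreted binding protein of insulin-like growth factors, was in both sets with opposite signs. It was at 8.26 after AKT1 siRNA and 9.98 after CDC37 siRNA, against 7.96, 9.16 and 10.05 as the lowest, median and highest reference arrays. HMGA2, an architectural chromatin protein, was at 11.58 after CDC37 siRNA, 0.54 above the reference median.

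Without the noise limit, 3 further genes besides UCA1 were called in the same direction in both arrays, all lower. DYNC1I1, a dynein intermediate chain, differed by -0.75 after AKT1 siRNA and -0.63 after CDC37 siRNA, ST3GAL6, a sialyltransferase, by -0.54 and -0.57, and the zinc finger gene ZNF678 by -0.63 and -0.57. All 3 were under the noise limit in both arrays, at levels between 4.97 and 6.04.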
